A study of Mus musculus with 51 samples.

Results

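The comparison set 6 arrays spiked with 0.75 pmol of RNA per gene against 6 arrays with no spike (0 pmol), out of 51 arrays in all. The members are the arrays whose titles give 0.75 pmol, replicates 1 to 6. Every array was a 2-colour self-hybridisation of RNA from CRL1606, a mouse hybridoma line made by fusing spleen cells of an immunised BALB/c mouse with the BALB/c myeloma P3-X63-Ag8, which secretes an antibody against human fibronectin. On the 0.75 pmol arrays, 100 genes had been spiked into the RNA of channel 1 and another 100 into the RNA of channel 2. On the 0 pmol arrays both channels held the hybridoma RNA alone. The groups of 0.5 pmol (6 arrays), 1 pmol (3 arrays) and 2 pmol (3 arrays) were used beside them. The line is a single cultured hybridoma, and the labels do not say whether the arrays of a group came from separate cultures or spike mixes. The p-values are thus about how far the arrays of a group scatter, and that scatter may be technical only. In the main fit the scatter was pooled over the groups of all amounts in the series, not only those compared.

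A spike-in experiment adds known amounts of chosen transcripts to a common RNA, so that the changed genes are set by the design and not by the cells. A self-hybridisation sets an RNA against itself, and a transcript present equally in both channels has a log2 ratio near 0. A gene spiked into 1 channel departs from 0, with a sign given by its channel. The ratio carries no level of the gene in the cells, so the hybridoma's own markers could not be used to check the cell type. Gene roles below describe what the spiked or measured genes do in cells and not a response of the hybridoma.

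The values are the authors' log2 ratios, with each array set to a median of 0 and the paired spots of a probe averaged, which left 7920 features. Values at the upper limit of the table were treated as missing. A difference of 1 on this scale is a 2-fold change of the ratio. The labels do not say which channel stands in the numerator, so a ratio is given by its sign alone. The labels do not list the spiked genes either. As a stand-in, 200 candidates were taken from the 2 pmol arrays alone: the 100 highest and 100 lowest mean log2 ratios among features with 1 sign on all 3 of those arrays. No 0.75 pmol or 0 pmol array took part in that choice.

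The 0.75 pmol arrays had values for 16628 to 16869 of 16896 spots, against 15990 to 16746 on the 0 pmol arrays. The correlation between the paired spots of a probe was 0.807, 0.702, 0.788, 0.198, 0.792 and 0.754 on replicates 1 to 6 of 0.75 pmol, and 0.617 to 0.805 on the 0 pmol arrays. Replicate 4 of 0.75 pmol had the lowest value of all 51 arrays, the other 50 running from 0.402 to 0.976, and results are therefore given with and without it. The values themselves also split both groups. Values equal to log2 of a ratio of whole numbers up to 5 made up 9.06%, 9.20% and 10.5% of the spots on 0.75 pmol replicates 1 to 3 but 0.233%, 0.511% and 0.647% on replicates 4 to 6. On the 0 pmol arrays they made up 0.824%, 0.129% and 0.394% on replicates 1 to 3 and 11.2%, 11.0% and 10.6% on replicates 4 to 6. Each group thus held 3 arrays rich in such ratios and 3 poor in them, and the comparison was repeated within each kind, an alternative chosen after the shares had been seen.

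The candidates lay on opposite sides of 0 on every 0.75 pmol array and near 0 on every 0 pmol array. The median log2 ratio of the 100 positive candidates was 3.12, 3.33, 3.03, 1.01, 3.87 and 4.09 on 0.75 pmol replicates 1 to 6, and 0.07 to 0.31 on the 0 pmol arrays. That of the 100 negative candidates was -2.32, -2.91, -2.53, -0.61, -3.36 and -3.04 on the same 6 arrays, and -0.02 to 0.26 on the 0 pmol arrays. Replicate 4 was the lowest on both sides, with medians nearer 0 than on any other 0.75 pmol array, and the groups did not overlap on either side. The separation, which is the positive median minus the negative median divided by 2, averaged 2.77 ± 1.03 over the 0.75 pmol arrays and 0.04 ± 0.04 over the 0 pmol arrays (SD, n = 6 each). Without replicate 4 it was 3.16 ± 0.42 (SD, n = 5) at 0.75 pmol. It is a description of the arrays and was not tested.

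**Figure D1:**
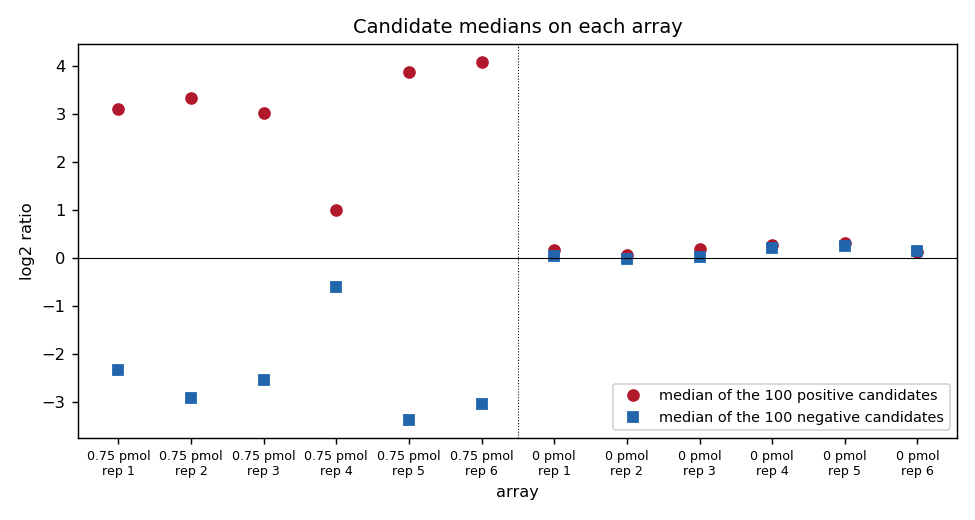
Median log2 ratio (y axis) of the 100 positive candidates (circles) and the 100 negative candidates (squares) on each 0.75 pmol array and each 0 pmol array (x axis). The medians at 0.75 pmol reach 4.09 and -3.36, replicate 4 sits at 1.01 and -0.61, and the 0 pmol medians lie between -0.02 and 0.31.

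Among single candidates, the signs held on nearly every array. All 100 positive candidates were above 0 on replicates 1, 2, 3, 5 and 6 of 0.75 pmol, and 94 on replicate 4. Of the 100 negative candidates, 99, 98, 98, 81, 99 and 100 were below 0 on replicates 1 to 6. Over the 6 arrays together, 173 of the 200 candidates had the sign of their 2 pmol mean on every array, and 196 did on the 5 arrays other than replicate 4. Measured in the direction of the 2 pmol sign, the ratio reached least far on replicate 4 for 192 of the 200. A ratio of the opposite sign counts as less far, whatever its size. The ratio reached farthest in that direction on replicate 6 for 95, on replicate 2 for 48 and on replicate 5 for 40.

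Across the candidates, the ratios at 0.75 pmol followed those at 2 pmol with a smaller size. The slope of a candidate's log2 ratio on its 2 pmol mean was 0.633, 0.701, 0.661, 0.223, 0.751 and 0.762 on replicates 1 to 6. The slope on replicate 4 was the lowest of the 6. The correlation with the 2 pmol mean over the 200 candidates was 0.954, 0.964, 0.960, 0.788, 0.971 and 0.978 on the same arrays. These are descriptions over features that share each array and were chosen for their distance from 0 at 2 pmol, and candidates are not independent replicates.

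With limma and Benjamini-Hochberg adjustment, 593 of 7920 features differed between 0.75 pmol and 0 pmol (7.49%), 390 in the positive direction (4.92%) and 203 in the negative (2.56%). Of the 200 candidates, 183 passed with the sign they had at 2 pmol, 93 positive and 90 negative. The median difference was 2.90 over all 100 positive candidates and -2.52 over all 100 negative ones, against -0.03 over all features. Without replicate 4, 605 features passed (7.64%), of which 512 were the same, and 186 candidates were among them. With all arrays, the 0.75 pmol and 0 pmol groups did not overlap for 134 of the 200 candidates (67.0%) and for 292 of 7720 other features (3.78%). With replicate 4 left out they did not overlap for 189 of the candidates. The other features were not counted without replicate 4, so the 189 has no share to be set beside it.

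The strongest positive differences were those of a glycosyltransferase, a receptor and cytoskeletal and transcription genes. Galnt13, an enzyme that attaches the first sugar of mucin-type O-glycans, had log2 ratios of 8.37, 8.14, 8.10, 4.71, 8.59 and 7.91 on 0.75 pmol replicates 1 to 6, and -0.38, -0.11, -1.21, -0.24 and -1.18 on the 5 unspiked arrays that measured it. Its lowest 0.75 pmol value, on replicate 4, was still far above every 0 pmol value. The difference was 8.26 with a standard error of 0.54 (limma, adjusted p = 3.42e-15), and 8.85 without replicate 4.

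Tlr1, a receptor that detects bacterial lipopeptides together with Tlr2, had log2 ratios of 7.12, 7.20, 7.16, 4.18, 7.88 and 7.76 at 0.75 pmol, and -0.70, -1.77, -0.69, -0.32 and -0.81 on the 5 unspiked arrays that measured it. Replicates 5 and 6 were the highest, replicate 4 was the lowest, and the groups did not overlap. The difference was 7.74 with a standard error of 0.66 (limma, adjusted p = 7.67e-12). Cald1, the actin-binding and tropomyosin-binding caldesmon, had 5.87, 6.50, 6.39, 1.51, 6.07 and 5.95 at 0.75 pmol, and -2.46, -0.13, -0.20, -2.82, -1.27 and -1.08 at 0 pmol, at the probe of spot 757. Part of its difference of 6.71 (SE 0.61, limma, adjusted p = 2.51e-11) came from ratios below 0 on the unspiked arrays, whose mean was -1.32 ± 1.12 (SD, n = 6).

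E2f4, a transcription factor that represses cell cycle genes with the pocket proteins, had unspiked values within a narrow band above 0. Its log2 ratios were 7.21, 7.39, 7.5, 4.37, 7.30 and 6.82 at 0.75 pmol and 0.53, 0.70, 0.72, 0.71, 0.83 and 0.66 at 0 pmol, a difference of 6.07 (SE 0.59, limma, adjusted p = 1.69e-10). Sspn, a membrane protein of the dystrophin complex, had 5.88, 6.27, 6.22, 2.40, 6.44 and 6.50 at 0.75 pmol and -0.87 to -0.19 at 0 pmol, a difference of 6.02. Zfp292, a zinc finger protein, had 5.0, 5.02, 4.78, 3.70, 5.96 and 6.45 at 0.75 pmol and -1.0 to -0.20 at 0 pmol, a difference of 5.69. Replicate 4 was again the lowest 0.75 pmol array for each of the 3 genes, and the groups did not overlap.

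The remaining 6 of the 12 highest named features had differences of 4.81 to 5.14. They were the plasma membrane calcium pump Atp2b2 (5.14), the fructose transporter Slc2a5 (5.11), the Cdc42-binding kinase Cdc42bpg (5.03), the trophoblast glycoprotein Tpbg (4.88), the clathrin light chain Cltb (4.86) and the Notch coactivator Maml3 (4.81). Spots 3580 and 839, which have no gene symbol, differed by 6.54 and 5.64. In all 12 named features the groups did not overlap, replicate 4 was nearest to 0 among the 0.75 pmol arrays, and the largest adjusted p from limma was 2.46e-05. These features were chosen as the largest called differences, so the lack of overlap and the small p largely follow from the choice. Over all arrays the groups did not overlap for 67.0% of the candidates and 3.78% of the other features.

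On the negative side, the strongest differences were those of a zinc finger protein, a ubiquitin ligase receptor and a mitochondrial carrier. Zfp330, a zinc finger protein, had log2 ratios of -6.10, -6.62, -5.58, -1.71, -5.25 and -5.39 on 0.75 pmol replicates 1 to 6, and 0.15, 0.16, 0.31, 0.25, 0.25 and 0.00 on the 0 pmol arrays. Replicate 2 was the lowest and replicate 4 the nearest to 0, with no overlap between the groups. The difference was -5.30 with a standard error of 0.60 (limma, adjusted p = 8.13e-09), and -5.98 without replicate 4.

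Fem1c, a substrate receptor of a cullin ubiquitin ligase, was measured by a pair of probes, and both passed. The probe of spot 2642 had -6.34, -5.91, -6.15, -1.36, -6.14 and -5.91 at 0.75 pmol, and 0.01, -0.43, -0.16, 0.25, -0.01 and 0.15 at 0 pmol. The probe of spot 15721 had -5.82, -6.14, -6.08, -1.53, -5.86 and -5.77 at 0.75 pmol, and -0.14, -0.33, -0.21, -0.61, -0.01 and -0.19 at 0 pmol. On both probes replicate 4 stood alone and the other 5 arrays lay within a narrow band. The differences were -5.27 (SE 0.77, limma, adjusted p = 2.31e-06) at spot 2642 and -4.95 (SE 0.61, limma, adjusted p = 5.67e-08) at spot 15721.

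Slc25a44, a mitochondrial carrier of branched-chain amino acids, had -5.26, -5.92, -5.29, -2.59, -6.30 and -5.72 at 0.75 pmol, and -0.25, 0.27, 0.22, 0.01, -0.07 and -0.23 at 0 pmol. Its difference of -5.17 (SE 0.66, limma, adjusted p = 1e-07) was the third lowest of the named features, although it was not a candidate, since its 2 pmol mean was -4.52 ± 3.99 (SD, n = 3) with 1 array above 0. Ms4a4b, a membrane protein of T cells, was, of the 12 lowest, the one for which replicate 4 lay closest to the other arrays, with -5.75, -6.53, -6.63, -5.26, -6.07 and -5.46 at 0.75 pmol and -1.89 to -0.16 at 0 pmol. Its difference was -5.08 (SE 0.62, limma, adjusted p = 5.2e-08).

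The other features among the 12 lowest had differences of -5.12 to -4.65. They were Prkaca, the catalytic subunit of protein kinase A (-5.12), the tyrosine kinase Tec (-4.99), the transcription factor Sox11 (-4.87), Cd22, an inhibitory co-receptor of B cells (-4.87), the scaffold protein Iqgap2 (-4.73), the poly(A) polymerase Papola (-4.71) and Topbp1, which acts in replication and the DNA damage checkpoint (-4.65). Tec had -7.29, -7.35, -7.14, -2.82, -5.75 and -5.49 at 0.75 pmol and -2.34 to -0.25 at 0 pmol. Its ratios on replicates 1 to 3 were lower than on replicates 5 and 6. Sox11 had -6.90 to -2.07 at 0.75 pmol, and 0.35, 0.17, 0.55, -1.38, -1.60 and -1.97 at 0 pmol. The unspiked values of Sox11 split by kind of array, above 0 on replicates 1 to 3 and below 0 on replicates 4 to 6. Spots 13160 and 16194, with no gene symbol, differed by -3.66 and -3.64. In all 12 named features the groups did not overlap, and the largest adjusted p from limma was 2.31e-06. As on the positive side, both largely follow from the choice of the largest called differences.

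**Figure D2:**
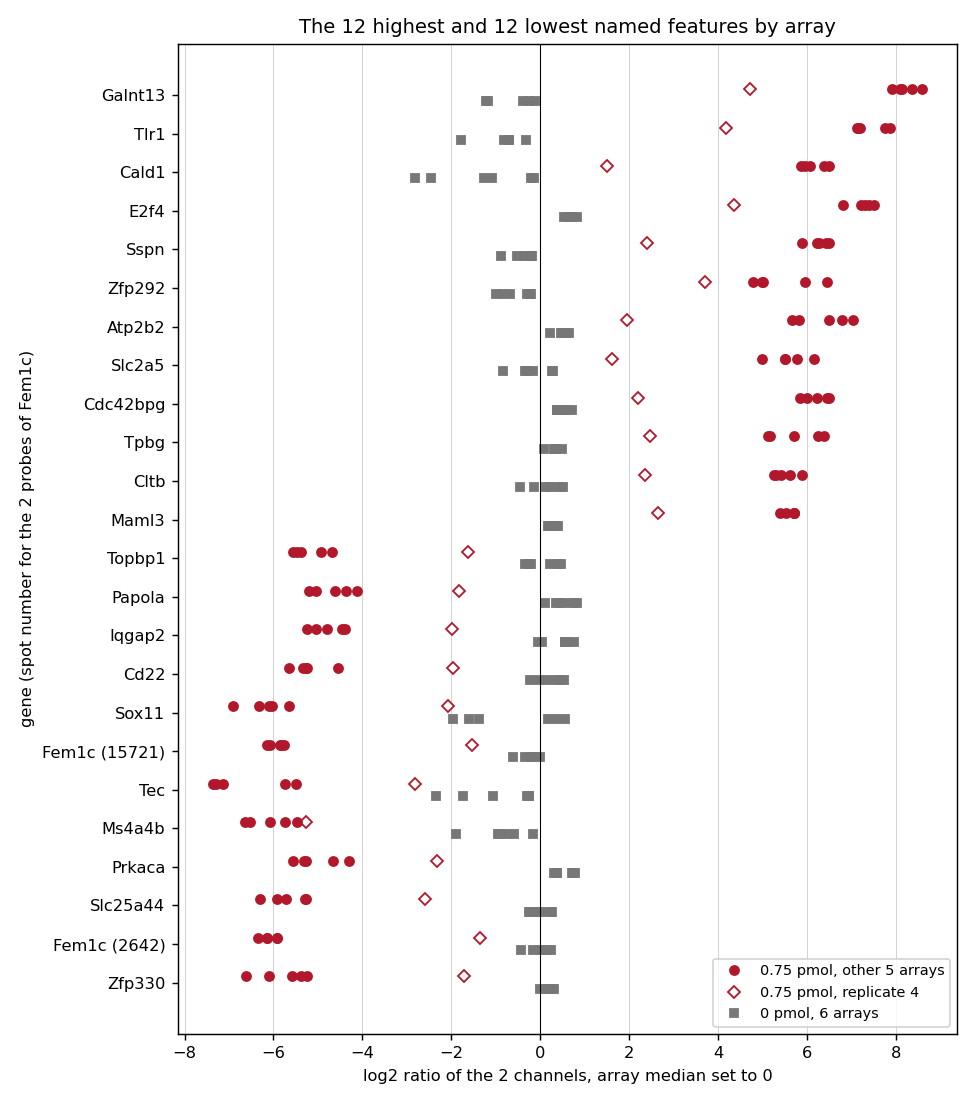
Log2 ratio (x axis) of the 12 highest and 12 lowest named features (y axis) on each array, with 0.75 pmol as red circles, its replicate 4 as open diamonds, and 0 pmol as grey squares below them in each row. The diamond is nearest to 0 among the 0.75 pmol arrays in all 24 features, and no grey square reaches a red symbol of its own feature.

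Features outside the candidate list made up 410 of the 593 calls. The strongest positive ones were the peroxiredoxin Prdx2 (3.06), the Munc13-related Baiap3 (2.87), the elongation factor Tcea3 (2.86), the tetratricopeptide protein Ttc23 (2.78) and the prolyl isomerase Fkbp9 (2.58). Their 2 pmol means, in the same order, were 3.45, 3.87, 3.47, 0.46 and 3.52. The list is a stand-in with a fixed length, so a place outside it does not show that a gene was not spiked. Prdx2 had 3.02, 3.18, 3.32, 2.15, 3.95 and 4.31 at 0.75 pmol and -0.02 to 0.54 at 0 pmol (SE 0.32, limma, adjusted p = 6.13e-10). Its groups did not overlap. Ttc23 had its highest value, 4.08, on replicate 4, among the 5 spiked arrays that measured it. Its call was lost without replicate 4 (2.47, limma, adjusted p = 0.0534) and without replicate 5 (2.54, limma, adjusted p = 0.0557).

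After Slc25a44, the lowest features outside the candidate list were 2210016L21Rik (-3.17), which carries only a clone name, the dUTP pyrophosphatase Dut (-2.44), the coagulation inhibitor Tfpi (-2.39) and the ribosome assembly factor Utp23 (-2.24). The gene 2210016L21Rik had -3.64, -3.24, -4.11, -0.17, -3.79 and -4.29 at 0.75 pmol and -0.60 to 0.37 at 0 pmol, so replicate 4 fell within the unspiked range and the other 5 arrays did not. Utp23 had -1.74, -1.89, -1.69, -1.02, -2.22 and -1.95 at 0.75 pmol and 0.22 to 0.70 at 0 pmol, with no overlap (SE 0.28, limma, adjusted p = 5.2e-08).

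The called candidates and the other called features differed in which group lay away from 0. For 180 of the 183 called candidates (98.4%) the 0.75 pmol mean was farther from 0 than the 0 pmol mean, and the medians of the absolute means were 3.02 at 0.75 pmol and 0.30 at 0 pmol. For the other 410 called features this held for 173 (42.2%), with medians of 0.36 at 0.75 pmol and 0.65 at 0 pmol. The 0 pmol mean lay beyond 1 in size for 114 of those 410 and for 7 of the 183. Because the test sees the difference alone, a positive call can come from a positive ratio at 0.75 pmol or from a negative ratio at 0 pmol.

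**Figure D3:**
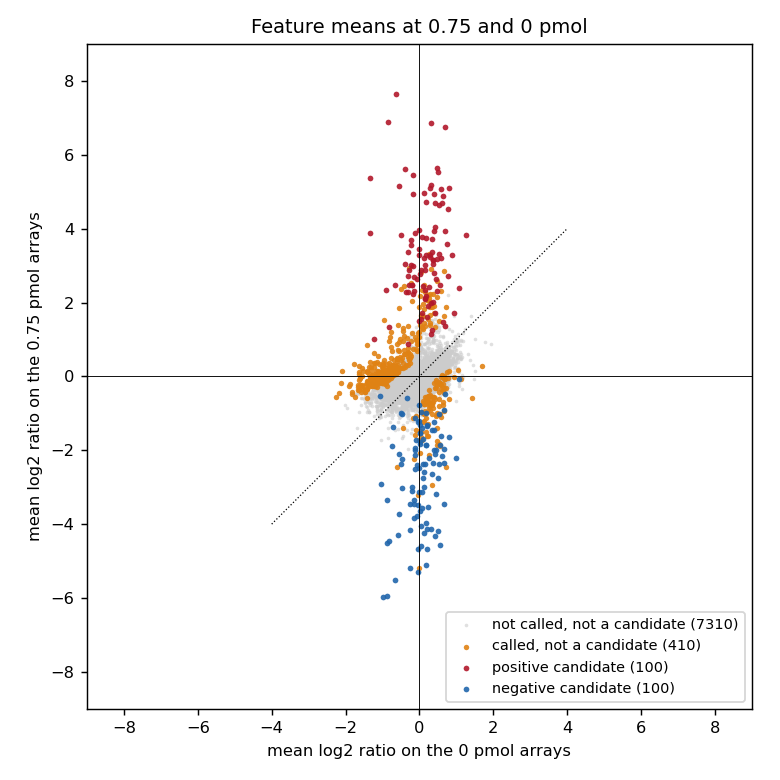
Mean log2 ratio of each feature on the 0.75 pmol arrays (y axis) against its mean on the 0 pmol arrays (x axis), with a dotted line of equality. The 100 positive and 100 negative candidates spread along the vertical axis, and many of the 410 other called features (orange) lie to the left of 0, with negative unspiked means.

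Within the arrays rich in whole-number ratios (0.75 pmol replicates 1 to 3 against 0 pmol replicates 4 to 6) 454 features passed (5.75%). Within those poor in them (0.75 pmol replicates 4 to 6 against 0 pmol replicates 1 to 3) 238 passed (3.02%), or 335 without replicate 4 (4.26%). The median difference of the positive candidates was 3.06 in the first kind, 3.00 in the second and 3.88 in the second without replicate 4. For the negative candidates the medians were -2.82, -2.43 and -3.23. Of the 183 called candidates, 182 kept the sign of their difference in both kinds and 101 passed in both. Of the 410 other called features, 405 kept their sign and 37 passed in both, 9.02% of them against 55.2% of the called candidates. Both kinds are parts of the arrays that gave the calls, so the kept signs are no independent check. When arrays were clustered by their values outside the candidates, the rich arrays of both amounts fell in the same set. The poor arrays of 0.75 pmol shared no set with those of 0 pmol. With these sets as a covariate 545 features passed with limma (6.88%), 163 of them candidates with the sign they had at 2 pmol.

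**Figure D4:**
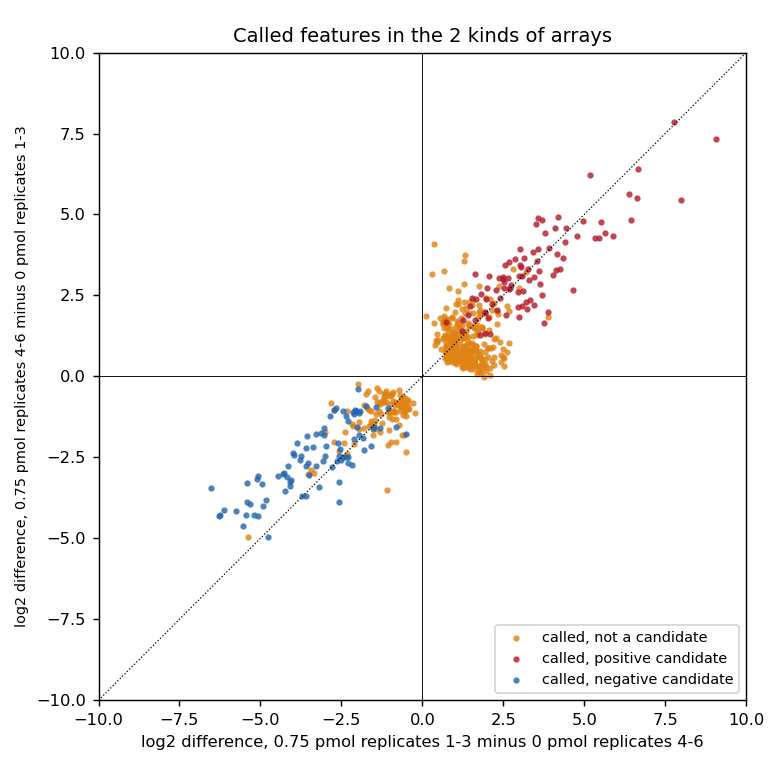
Log2 difference of the 593 called features in the arrays rich in whole-number ratios (x axis, 0.75 pmol replicates 1 to 3 minus 0 pmol replicates 4 to 6) and in those poor in them (y axis, 0.75 pmol replicates 4 to 6 minus 0 pmol replicates 1 to 3), with a dotted line of equality. Candidates extend along the diagonal beyond 5 in size, while most of the 410 other features lie nearer to the origin.

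The gene lists describe which kinds of genes were among the calls, against 7.49% of all features. They give no test of a list, and the median difference over all features was -0.03. For genes of mucin-type O-glycosylation, 1 of 17 probes passed, that of Galnt13 described above, and the list's median was 0.02. The second Galnt13 probe, at spot 11444, had log2 ratios of 0.03, -0.10, -0.16, 0.57, -0.31 and -0.06 at 0.75 pmol and -0.63 to 1.06 at 0 pmol. The groups overlapped fully, and its difference was 0.15 (limma, adjusted p = 0.891). Of 10 probes for Toll-like receptor and NF-kB signalling only that of Tlr1 passed, and the median was 0.04.

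Ubiquitin ligases and their receptors had 5 of 36 probes called, 2 positive and 3 negative, with a median of -0.09. Beside both Fem1c probes these were Trim25, an E3 ligase of antiviral signalling (2.40, SE 0.39), 1 of the Fbxw11 probes, an F-box substrate receptor (1.39, SE 0.32), and Rbx1, the RING subunit of cullin ligases (-1.06, SE 0.21). Trim25 had 2.71, 3.28, 2.94, 0.59, 3.36 and 3.87 at 0.75 pmol and 0.07 to 0.64 at 0 pmol, so only replicate 4 lay within the unspiked range. For mRNA 3' end processing 2 of 8 probes passed, with a median of -0.03. They were Cpsf6, a subunit of a cleavage factor (4.27, SE 0.61), and Papola at spot 4640, while the second Papola probe differed by -0.26 (limma, adjusted p = 0.575).

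Of the plasma cell and B cell genes, 2 of 8 probes passed, both negative and both candidates (Cd22 and Tec), and the median was -0.23. The other 6 probes, for Bcl6, Cd53, Ebf1, Pou2af1 and Btk, differed by -0.58 to 0.85 without passing. Of the ER folding and secretion genes, on which an antibody-secreting cell relies, 0 of 18 probes passed with limma, 0 had an unadjusted p under 0.05, and the median was -0.10. For the 11 probes of T cell, NK cell and myeloid genes, 4 passed, 2 in each direction, with a median of 0.15. Ms4a4b and Tcra, the T cell receptor alpha chain (-4.47, SE 0.88), lay away from 0 at 0.75 pmol.

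The positive calls of that list differed in kind. Cd3e, a signalling chain of the T cell receptor complex, had 0.12, -0.19, 0.34, 0.03, -0.09 and 0.12 at 0.75 pmol, and -0.78, -2.24, -2.28, -1.64 and -1.23 on the 5 unspiked arrays that measured it. Its 0.75 pmol ratios were near 0, and the difference of 1.69 (SE 0.28, limma, adjusted p = 2.57e-05) came from the unspiked arrays. Ctla4, an inhibitory receptor of T cells, had -0.21 to 0.83 at 0.75 pmol and -3.30 to 0.38 at 0 pmol, with overlap. Its difference of 1.5 (SE 0.41, limma, adjusted p = 0.0162) was lost without 0 pmol replicate 1 (0.98, limma, adjusted p = 0.118) and without 0 pmol replicate 2 (1.24, limma, adjusted p = 0.0693).

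Of the cell cycle genes 3 of 18 probes passed, E2f4 and 1 Cdk6 probe in the positive direction and Topbp1 in the negative, with a median of -0.02. The Cdk6 probe of spot 10300, for a kinase of the G1 phase, had -0.73 to 0.42 at 0.75 pmol and -4.20 to -0.17 at 0 pmol. Its difference of 1.38 (limma, adjusted p = 0.0137) was lost without 0 pmol replicate 2 (0.87, limma, adjusted p = 0.0747) and without replicate 6 (1.14, limma, adjusted p = 0.0652). Of the glycolysis genes 3 of 10 probes passed, with a median of -0.02: Slc2a5 and 1 probe of the hexokinase Hk2 were positive, and the second Hk2 probe was negative. Of the oxidative phosphorylation genes, 1 of 6 probes passed, that of the complex I subunit Ndufa2 (-3.64, SE 0.56), with a median of -0.38. For liver, muscle, nerve, epithelium and stroma genes 1 of 17 passed, that of the keratin Krt18 (3.57, SE 0.40), with a median of -0.05.

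The calls were set beside each other for genes with several probes, without a test of the difference between probes. There were 843 genes with 2 or more probes, and 129 of them had at least 1 called probe. All probes were called with 1 sign for 2 genes, Fem1c and the sphingomyelinase Smpd4 (-2.53 at spot 9700 and -1.67 at spot 16377). Called probes had opposite signs for 3 genes, and for the other 124 some probes did not pass, where 7.49% of all features passed. The differences had 1 sign on all probes for 47 of the 129 genes, whether or not they passed. The 3 genes were chosen after their values were seen. Cald1 differed by 6.71 at spot 757 and -1.55 at spot 12991, and its other 3 probes by 0.36 to 1.26 without passing. Hk2 differed by 4.10 at spot 9437 and -1.33 at spot 15849 (limma, adjusted p = 0.0289), a call that was lost without 0 pmol replicate 4, 5 or 6 and without 0.75 pmol replicate 2 or 6 (limma, adjusted p up to 0.106). Stmn2, a neuronal regulator of microtubules, differed by -2.47 at spot 8016 and 0.83 at spot 10264.

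The candidate separation did not rise evenly with the amount over the series. It ran from 2.24 to 3.15 at 0.025 pmol, 1.20 to 3.31 at 0.05 pmol and 1.61 to 3.525 at 0.1 pmol. At 0.15 pmol it ran from 3.40 to 3.74, and at 0.2 pmol from 3.19 to 3.83. With 6 arrays each, the candidate separation was 3.40 ± 0.60 (SD) on the 0.25 pmol arrays, 3.61 ± 0.30 on the 0.5 pmol arrays and 2.77 ± 1.03 at 0.75 pmol. For the groups of 3 arrays it was 4.81 ± 0.18 (SD) at 1 pmol and 4.76 ± 0.15 at 2 pmol. The 0.75 pmol replicates 5 and 6, at 3.62 and 3.57, lay within the range of the 0.5 pmol arrays (3.28 to 4.07). Replicates 1 to 3, at 2.72 to 3.12, lay below it, as did replicate 4 at 0.81. The 2 pmol value is set by the choice of candidates on those arrays.

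Between 0.75 pmol and 0.5 pmol 247 of 7920 features passed with limma (3.12%), 166 positive (2.10%) and 81 negative (1.02%). For 139 of the 200 candidates the 0.75 pmol mean lay less far in the direction of the spike than the 0.5 pmol mean, and 18 of these passed, against 3 that passed with a 0.75 pmol mean farther in that direction. Without replicate 4, 127 candidates lay less far at 0.75 pmol, and 5 passed in each direction. With sets of like arrays as a covariate 97 lay less far, with 2 called, and the median difference toward the spike's sign was 0.04, against -0.66 without the covariate. The sets are not from the labels but from clustering the arrays by their own values outside the candidates. Only the set of 0.75 pmol replicates 5 and 6 and 0.5 pmol replicates 1 to 3 held arrays of both amounts. Set and amount thus largely went together in these 2 groups. The fit separated them only through that set and through the arrays of other amounts. It took a set to shift a feature alike at every amount, which was not tested. The count of all calls depended on single arrays. It was 179 without 0.75 pmol replicate 4, 107, 111 and 104 without 0.75 pmol replicates 1, 2 and 3, 389 without 0.5 pmol replicate 1, and 84, 93 and 54 without 0.5 pmol replicates 4, 5 and 6. The array kinds, sets of like arrays and replicate numbers also moved it to under 100 calls, as given with the alternatives.

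Among the 4 highest features against 0.5 pmol, Maml3 averaged 5.11 ± 1.22 at 0.75 pmol and 1.71 ± 2.41 at 0.5 pmol (SD, n = 6 each), a difference of 3.41 (limma, adjusted p = 0.0037). Its 0.5 pmol values ran from -1.66 to 4.56. Ttc23 (3.02) lost its call without 0.75 pmol replicate 4 (limma, adjusted p = 0.0535). Prg4, the joint lubricant proteoglycan (2.89), and the angiogenic factor Vegfa (2.71) averaged -0.37 ± 0.57 and -0.46 ± 0.53 at 0.75 pmol, against -3.26 ± 2.35 and -3.17 ± 2.69 at 0.5 pmol (SD, n = 6 each). The medians were -0.48 for Prg4 and -0.68 for Vegfa at 0.75 pmol, against -2.73 for Prg4 and -2.53 for Vegfa at 0.5 pmol, where all 6 arrays were below 0 for both genes. Prg4 lost its call without 0.5 pmol replicate 6 (limma, adjusted p = 0.0687), and Vegfa lost it in 8 of 12 fits with 1 array left out (limma, adjusted p up to 0.172).

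The 4 lowest features against 0.5 pmol were the codanin gene Cdan1 (-2.79), the transcription factors Usf1 (-2.73) and Elf2 (-2.52), and Scaf8 (-2.46), which binds the tail of RNA polymerase II. Elf2 averaged 2.28 ± 0.88 at 0.75 pmol and 4.79 ± 0.36 at 0.5 pmol (SD, n = 6 each; limma, adjusted p = 0.0096). Usf1 averaged 0.92 ± 0.57 at 0.75 pmol and 3.66 ± 0.91 at 0.5 pmol (SD, n = 6 each; limma, adjusted p = 0.00898). Both were nearer to 0 at 0.75 pmol and kept their calls with any 1 array left out. Cdan1 lost its call without 0.75 pmol replicate 4 and without 0.5 pmol replicate 4, 5 or 6 (limma, adjusted p up to 0.0767). Scaf8 lost it without 0.5 pmol replicate 4 or 5 (limma, adjusted p up to 0.0514).

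Between 0.75 pmol and 1 pmol 1865 of 6030 features passed with limma (30.9%), 1320 positive (21.9%) and 545 negative (9.04%). The 1 pmol arrays missed 13.5% to 50.5% of their spots, so fewer features could be tested. Of the 180 candidates tested, 171 had a 0.75 pmol mean less far in the direction of the spike than the 1 pmol mean, and 116 of these passed with limma. The other way 0 passed, and 1 had an unadjusted p under 0.05. This direction turned round when arrays were scaled to 1 spread. Then 45 of the 180 lay less far at 0.75 pmol, 2 of them called, 8 were called the other way, and the median difference toward the spike's sign was 0.50. With array weights 13 candidates passed as less far and 0 the other way, and with the replicate block 0 passed in either direction, where 124 less far and 1 farther had an unadjusted p under 0.05. Without replicate 4, 164 lay less far at 0.75 pmol, 97 of them called, and 1 was called the other way. The median difference toward the spike's sign, with unscaled arrays, was -2.10, or -1.65 without replicate 4. The count of all calls was 292 with arrays scaled to 1 spread (275 positive and 17 negative), 416 with array weights, 184 with no centring and 0 with the replicate block. It was 1202 without 1 pmol replicate 2 and 1166 without 1 pmol replicate 3. This comparison and that with 0.5 pmol use the same 0.75 pmol arrays as the comparison with 0 pmol.

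Against 1 pmol, the 4 lowest features included 3 candidates. Zfp292 averaged 5.15 ± 0.96 at 0.75 pmol (SD, n = 6), against 12.2 and 16.1 on the 1 pmol arrays that measured it, a difference of -8.96 (SE 1.05, limma, adjusted p = 1.06e-08). Its means were 6.55 at 0.5 pmol and 7.93 at 2 pmol, so both 1 pmol values lay above those of the amounts on either side. Cpsf6 averaged 4.70 ± 1.34 at 0.75 pmol (SD, n = 6) and 8.31 ± 0.61 at 1 pmol (SD, n = 3), a difference of -3.61. Ppp2r1b, a scaffold subunit of protein phosphatase 2A, averaged 3.36 ± 1.09 at 0.75 pmol (SD, n = 6) and 6.98 ± 0.41 at 1 pmol (SD, n = 3), a difference of -3.62. Tmcc1, a coiled-coil membrane protein of the endoplasmic reticulum, differed by -4.14 and was not a candidate. It was measured on 2 of the 1 pmol arrays, at 3.18 and 7.03. Its means were 0.96 at 0.75 pmol, 0.01 at 0.5 pmol and 0.10 at 2 pmol.

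The 4 highest features against 1 pmol were the sialyltransferase St6galnac4 (5.20), the membrane protein Tmem33 (4.76), Plekhg3, which has a pleckstrin homology domain (4.66), and the ubiquitin-conjugating enzyme Ube2w (4.19). None was a candidate. Their means at 0.75 pmol were 0.01, 0.11, 0.38 and 0.21, against -5.19, -4.64, -4.28 and -3.99 at 1 pmol, where each was measured on 2 arrays. The departure from 0 was thus on the 1 pmol arrays and not at 0.75 pmol.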

How the data were processed

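The deposited values are log2 ratios, 1 for each spot of each array, in the authors' series matrix. No source states the base of the logarithm, and log2 was inferred because ratios of small integers recur exactly on that scale. The labels refer to an outside page for normalisation, and the background correction, filters and normalisation of the authors are not given in the sources used here. The array medians of the 0.75 pmol arrays were -3.03 to -1.32, so the arrays had not been centred. Values at the table's upper limit (1074 over all 51 arrays) were set to missing. Arrays carry no counts, and their number limits the precision.

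The 16896 spots lie in 48 blocks, with the 2 spots of a probe 22 spot numbers apart, the length of 1 print row. They were averaged, and 528 control probes were left out, which gave 7920 features, 5348 of them with 1 gene symbol from the platform annotation, updated through RefSeq identifiers. Each array was centred on its median. limma 3.58.1 (R 4.3.3) fitted all 51 arrays with 1 mean per amount, two-sided, with at least 2 measured arrays per group and Benjamini-Hochberg adjusted p under 0.05, after the fit was tested on simulated data. Python 3.11.15 with matplotlib 3.10.9 drew the figures.

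Groups and replicate numbers came from the sample titles. The text names the 12 highest and 12 lowest called features with a symbol and the sign of the difference on each 0.75 pmol array other than replicate 4, 2 each way without a symbol, 5 each way outside the candidates, 4 each way against 0.5 and 1 pmol, every probe of Galnt13, Tlr1, Zfp330 and Fem1c, and up to 5 called members of each of 11 gene lists. The members and lists were chosen with earlier results of these data known. Alternatives covered centring, scaling, the upper limit, single spots, array weights, leaving out arrays, a replicate block, array sets clustered from these data and the whole-number kinds. Same-numbered arrays of 0.75 and 0 pmol correlated in their deviations at -0.10 to 0.00, so the numbers were not taken to pair the arrays.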

Additional observations from a re-analysis of the deposited data

Results flagged for a closer look

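In 128 groups of values, 41 had a highest or lowest array that stood apart from the other arrays by Dixon's criterion, where chance alone gives about 1 in 20 groups. Of these, 36 were replicate 4 of 0.75 pmol. Because all of them are values of 1 array, they are not independent. For that array the candidate separation was 0.81 and the paired-spot correlation was 0.20. Most groups were values of features named for their differences on these arrays, and the sign rule for many of them left replicate 4 out. The 1 in 20 is thus no yardstick for the count of 41.

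Among the positive genes, the values of replicate 4 that stood apart from the other 0.75 pmol arrays were those of Galnt13 (4.71), Tlr1 (4.18), Cald1 (1.51), E2f4 (4.37), Sspn (2.40), Atp2b2 (1.96), Slc2a5 (1.61), Cdc42bpg (2.19), Tpbg (2.47), Cltb (2.36), Maml3 (2.64), Tcea3 (0.79), Elf2 (0.56), Ppp2r1b (1.27), Krt18 (1.92) and Trim25 (0.59). Spots 3580 (4.29) and 839 (1.12) did so too. Each was nearer to 0 than on the other 5 arrays. Cdan1 was at -2.67 on replicate 4, where the other arrays were above 0.

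Among the negative genes, those were Zfp330 (-1.71), Fem1c at spots 2642 (-1.36) and 15721 (-1.53), Slc25a44 (-2.59), Sox11 (-2.07), Cd22 (-1.97), Iqgap2 (-1.98), Papola (-1.82), Topbp1 (-1.62), 2210016L21Rik (-0.17), Ndufa2 (-0.75), Tcra (-0.61) and spot 16194 (-1.20). Again the value of replicate 4 was the nearest to 0. Ube2w (-0.56) and Tmcc1 (1.71), which are not candidates, also stood apart on replicate 4, both farther from 0 than on the other arrays.

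The 5 other values were Tmem33 on 0.75 pmol replicate 6 (-0.56), and on 0 pmol arrays Baiap3 on replicate 5 (-1.38), Dut on replicate 6 (1.27), Tfpi on replicate 2 (-0.23) and the Galnt13 probe of spot 11444 on replicate 6 (1.06). What set replicate 4 apart was not tested.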

How the results depend on the processing

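Against 0 pmol the 593 calls became 170 with no centring (94 positive and 76 negative), 1053 with array weights, 238 within the arrays poor in whole-number ratios and 335 there without replicate 4, and ran from 463 to 636 with 1 array left out. Called candidates numbered 106 within the arrays poor in whole-number ratios, 100 of 100 (100%) with 50 taken each way, 253 of 400 (63.2%) with 200 taken each way, and 165 to 186 with 1 array left out. The separation ran from 2.60 to 3.16 with 1 array of 0.75 pmol left out, and was 3.73 with 50 and 1.75 with 200 candidates each way. Same-numbered arrays were not shown to be pairs, and with the replicate number as a block there were 417 calls against 0 pmol, 6 against 0.5 pmol and 0 against 1 pmol, where 1325 had an unadjusted p under 0.05. Against 0.5 pmol the 247 calls became 7421 with no centring (2 positive and 7419 negative), 830 with arrays scaled to 1 spread (474 positive and 356 negative), 145 with limit values kept, 75 with only these groups, 1669 with array weights, 15 with array set as a covariate and 83 with the whole-number kind as a covariate. They ran from 54 to 389 with 1 array left out. Against 1 pmol the 1865 calls became 184 with no centring (105 positive and 79 negative), 292 with arrays scaled (275 positive and 17 negative), 851 with only these groups, 416 with array weights and 1186 with features measured on every array, and ran from 1166 to 1860. The cause was not tested, except that fewer arrays or features enter the fits that leave some out. No named difference that passed changed sign.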

Other observations

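The candidates were unevenly spread over the print layout. Within the 22 columns of a print block, columns 20 and 21 held 54 of the 200 candidates (27.0%) and 9.70% of all features, and 44 of the 410 other called features (10.7%). A candidate lay directly above or below for 45 of the 200 candidates (22.5%), for 36 of the 410 other called features (8.78%) and for 246 of the 7310 features that were neither (3.37%). To the left or right, the shares were 6.0% for candidates, 2.44% for the other called features and 4.73% for features that were neither. Of the 36 called features with a candidate above or below, 34 had one of their own sign. This held for 37 of the 45 candidates and for 153 of the 246 features that were neither. The part of print position in these calls was not tested.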
